A study of Mus musculus with 186 samples.

Results

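The genes described here are 10 parts of the Notch pathway: the receptors Notch1, Notch2, Notch3 and Notch4, the ligands Dll1, Dll4, Jag1 and Jag2, and the targets Hes1 and Hey1. They were taken by name from the 25275 genes with a symbol in the count files, and all 10 passed the filter on low counts that kept 14773 genes. They were examined in 186 single epithelial cells sorted from the mammary glands of adult FVB/NJ mice, an inbred strain, with no treatment. Of these, 96 were sorted as basal and 90 as luminal, and in the study's methods the sort left out cells that carried CD31, CD45 or Ter119, the surface markers of endothelial, white and red blood cells. The design text counts 8 mice, but no label says which mouse a cell came from, so each population is 1 sample. No test between populations was possible, no difference below has a replicate check, and every interval is a 95% interval for counting error only. PCR plate A held only basal cells, plate C only luminal cells and plate B some of each, so a comparison within a plate is possible on plate B alone.

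Notch signalling passes between touching cells. A ligand of the Delta-like or Jagged family on a cell binds a Notch receptor on its neighbour, the receptor is cleaved by Adam10 and then by gamma-secretase, and its inner part enters the nucleus, where it joins the DNA-binding protein Rbpj and a Mastermind coactivator. The complex turns on target genes, among them the Hes and Hey repressors. In the mammary gland the pathway is known for its role in luminal fate, and in blood vessels Notch4, Dll4 and the Hey genes are typical of endothelium.

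Sequences just upstream of annotated starts of the genes were read on GRCm38.p6, the assembly also called mm10. The table held 8 of the 10 genes, all but Hes1 and Hey1, with 9 windows of 250 bases that end at an annotated start. The Jag2 window and another Dll1 window, not shown, lie within the spans given below for their genes, and the Notch4 window does so in part. A receptor and a ligand that were detected mostly in different populations are shown, Notch3 and Dll1, with any match to a Notch pathway motif in capitals. The motifs were searched on both strands. The Notch3 window, chr17:32166891-32167140 on the minus strand, overlapped no exon in the GENCODE annotation. Its last bases lie within the span given below for the gene, which ends at 32166896. The Dll1 window, chr17:15376933-15377182 on the minus strand, overlapped an exon of the long noncoding RNA A930024N18Rik on the other strand and held no match.
Notch3: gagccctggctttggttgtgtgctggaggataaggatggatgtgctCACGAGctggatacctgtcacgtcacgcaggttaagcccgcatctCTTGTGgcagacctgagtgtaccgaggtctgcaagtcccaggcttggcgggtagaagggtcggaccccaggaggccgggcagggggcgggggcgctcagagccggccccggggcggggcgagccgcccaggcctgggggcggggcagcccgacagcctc
Dll1: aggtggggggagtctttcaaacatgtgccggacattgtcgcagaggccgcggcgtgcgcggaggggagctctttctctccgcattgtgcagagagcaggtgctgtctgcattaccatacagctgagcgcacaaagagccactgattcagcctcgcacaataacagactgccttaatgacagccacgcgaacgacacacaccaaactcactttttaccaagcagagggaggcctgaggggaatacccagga

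The capitals in the Notch3 window are 2 matches to the N box, CACNAG or CTNGTG on the other strand, a sequence that Hes repressors bind. An N box was also present upstream of Notch1, Notch2 and Dll4, so 4 of the 8 genes held it, against 36.7% of all 32851 promoter windows. The Rbpj core motif, TGGGAA or TTCCCA, was in 0 of the 8 genes' windows and in 21.6% of all windows. The box CACGTG, whose letters cannot form an N box, was in 0 of the 8 and in 6.02% of all windows. These are descriptions of the letters in short windows, and they say nothing of binding.

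Of the 186 cells, 148 passed the study's thresholds on reads and genes, 72 basal (50 on plate A, 22 on plate B) and 76 luminal (24 on plate B, 52 on plate C). Total counts ranged from 3105 to 3784407 per cell. At an equal 50000 reads, a median of 2902 genes was detected in basal cells of plate A, 1568.5 in those of plate B, 3195 in luminal cells of plate B and 3434.5 in those of plate C, so shares of cells with a read are also given at equal depth. Basal cells held a median of 9 of 10 basal markers and 3 of 10 luminal markers, and luminal cells 0 and 9. Basal cell 90 (plate B) went against its label, with 0 of 10 basal and 6 of 10 luminal markers. Luminal cell 63 (plate C) held 9 basal and 8 luminal markers. A further 10 wells held at least 4 of 20 endothelial markers at 10 CPM or more (CPM are counts scaled to a common library total), 6 of the basal wells (all on plate B) and 4 of the luminal wells (all on plate C). Summed endothelial markers ranged from 0 to 12616 CPM in basal cells (median 1.32) and from 0 to 5874.5 CPM in luminal cells (median 41.8), and each of the 20 markers had a read in each population. White blood cell markers were sparse, with at most 2 of 11 in a basal cell and 1 of 11 in a luminal cell, and 4 and 1 of the 11 had no read at all. By the rule used for endothelial markers, 8 wells held at least 4 of 10 fibroblast markers, 1 basal and 7 luminal, with 7.00% of all reads. Luminal cells 55 and 71 among them also held endothelial markers. Results that rest on basal cell 90 or on wells with endothelial markers are given with and without them. No result was recomputed without the set of wells with fibroblast markers.

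Ligands other than Dll4 were higher in basal cells, Hes1 was higher in luminal cells, and the most abundant receptor, Notch2, was level between them. On the ratio of summed CPM (1 CPM added to each population), 3 of the 10 genes were at least 2-fold higher in luminal cells, namely Dll4, Hes1 and Hey1, where 28.4% of all 14773 genes were. In the other direction 4 of the 10 were at least 2-fold higher in basal cells, namely Notch3, Dll1, Jag1 and Jag2, where 18.3% of all genes were. Their median log2 ratio was -0.46, and that of all genes was 0.18. Within plate B the counts were 2 luminal (Notch1 and Hes1) and 6 basal (Notch3, Notch4, Dll1, Jag1, Jag2 and Hey1), beside 41.4% and 17.2% of all genes. Several of the 6 rest on single basal wells of that plate. Basal cell 90 held all 2356 Notch3 reads. Basal cells 80 and 95, wells with endothelial markers, held all 42 Notch4 and 71 of 74 Hey1 reads (80) and 607 of 791 Jag2 reads (95). Over all plates without basal cell 90 the counts were 4 luminal and 3 basal, as Notch3 changed sides (28.6% and 18.3% of all genes). Over all plates without the 10 wells with endothelial markers they were 1 luminal (Hes1) and 5 basal (28.4% and 18.4% of all genes).

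**Figure D1:**
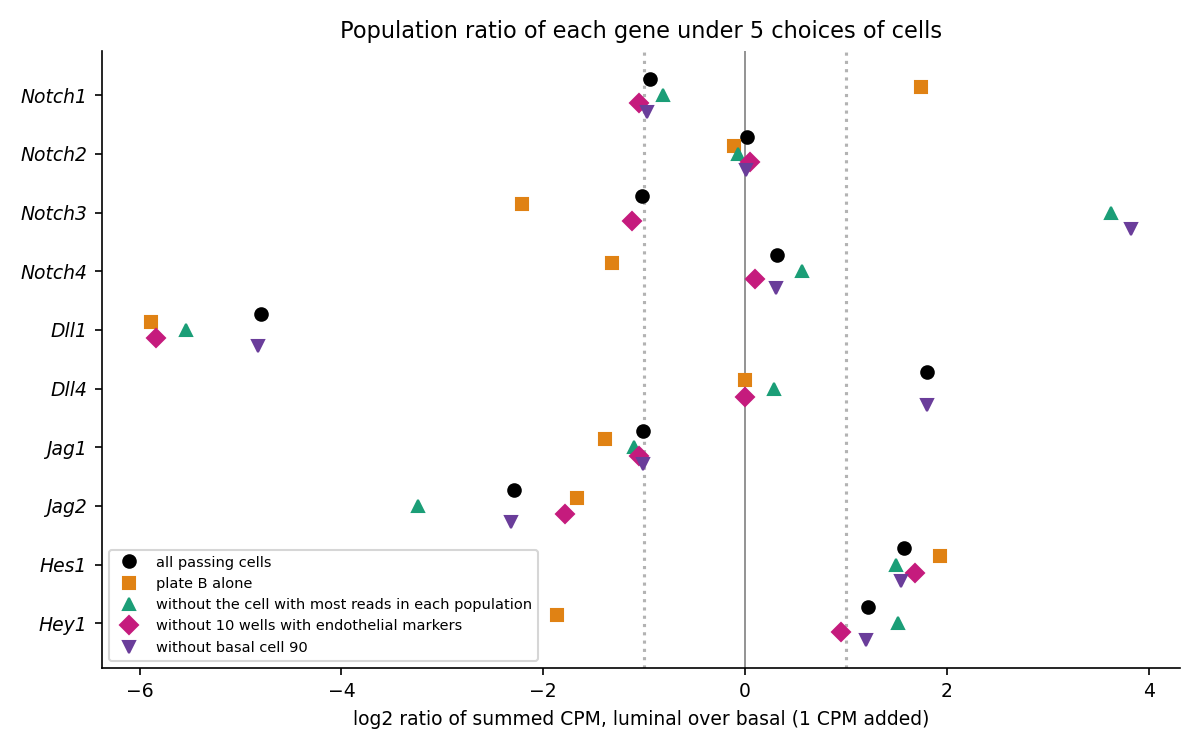
Log2 ratio of summed CPM, luminal over basal with 1 CPM added, for each gene (rows) under 5 choices of cells (symbols); dotted lines mark 2-fold. Dll1, Jag1, Jag2 and Hes1 stay on the same side under every choice shown, while Notch3 moves from -1.02 to 3.82 when basal cell 90 is left out and Notch1 from -0.94 to 1.74 on plate B.

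Among receptors, Notch2 was the most abundant per length in each population, with 10.6 RPKM (CPM divided by the gene's length in kilobases) in basal and 10.8 RPKM in luminal cells. It made up 53.0% of the summed receptor RPKM in basal and 69.3% in luminal cells. The gene (Entrez 18129, chromosome 3, 98013538-98150367) encodes a receptor that is widely used in epithelia. Its summed level was 111 CPM (109 to 113) in basal and 113 CPM (111 to 115) in luminal cells, a log2 ratio of 0.02, and -0.11 on plate B. Per cell it ran from 0 through a median of 60.1 to 703 CPM in basal cells and from 0 through 58.7 to 943 CPM in luminal cells, so the populations overlapped over almost their whole range. A read was found at 50000 reads in 48 of 72 basal cells (66.7%, 54.6 to 77.3) and 62 of 76 luminal cells (81.6%, 71.0 to 89.5). The 8 wells with fibroblast markers held 2709 of the 22232 Notch2 reads (12.2%).

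Notch1 (Entrez 18128, chromosome 2, 26457902-26503822), the best studied receptor of the family, came next at 5.79 RPKM in basal and 2.96 RPKM in luminal cells. Its levels were 54.9 CPM (53.4 to 56.6) and 28.1 CPM (27.1 to 29.1), a log2 ratio of -0.94. The plates disagreed. Basal cells held 77.6 CPM on plate A and 9.53 CPM on plate B, luminal cells held 34.2 CPM on plate B and 25.2 CPM on plate C, and the log2 ratio was 1.74 within plate B. Of the 267 reads in basal cells of plate B, 229 were in basal cell 80, a well with endothelial markers. Reads were concentrated in few basal cells, with a median of 0 and a highest value of 903 CPM in basal cell 45, whereas luminal cells had a median of 0.538 and a highest value of 242 CPM. Shares of cells with a read ran the other way from the pooled level, 16 of 72 basal (22.2%, 13.3 to 33.6) and 22 of 76 luminal cells (28.9%, 19.1 to 40.5) at 50000 reads, and these intervals overlap. The noncoding gene 0610009E02Rik overlaps Notch1 and had 433 reads in these cells. A strand setting for the counting is not given in the sources used here.

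Notch3 (Entrez 18131, chromosome 17, 32120820-32166896), a receptor also prominent in pericytes and smooth muscle, was found almost only in luminal cells once basal cell 90 was set aside. That well alone held 2356 of the 2357 basal reads, at 1633 CPM. The summed level was 28.0 CPM (26.9 to 29.2) in basal and 13.3 CPM (12.7 to 14.0) in luminal cells with it, and 0.0121 CPM in basal cells without it. The log2 ratio went from -1.02 to 3.82, and on plate B from -2.21 to 4.20. Luminal cells ranged from 0 through a median of 0.694 to 153 CPM, in luminal cell 65. A read was present in 44 of 76 luminal and 2 of 72 basal cells at full depth, and in 14 luminal (18.4%, 10.5 to 29.0) and 1 basal cell (1.39%, 0.0352 to 7.50) at 50000 reads. On plate B these were 7 of 24 and 1 of 22. The 3 wells with at least 4 of 10 pericyte markers held 52 of the 3876 Notch3 reads (1.34%).

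Notch4 (Entrez 18132, chromosome 17, 34564286-34588543), the receptor typical of endothelium, was scarce, with 43 basal and 100 luminal reads. That came to 0.511 CPM (0.370 to 0.689) and 0.877 CPM (0.713 to 1.07). Of the 143 reads, 133 (93.0%) lay in the 10 wells with endothelial markers. Its level was 12.0 CPM in those wells and 0.0534 CPM in the other 138.

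**Figure D2:**
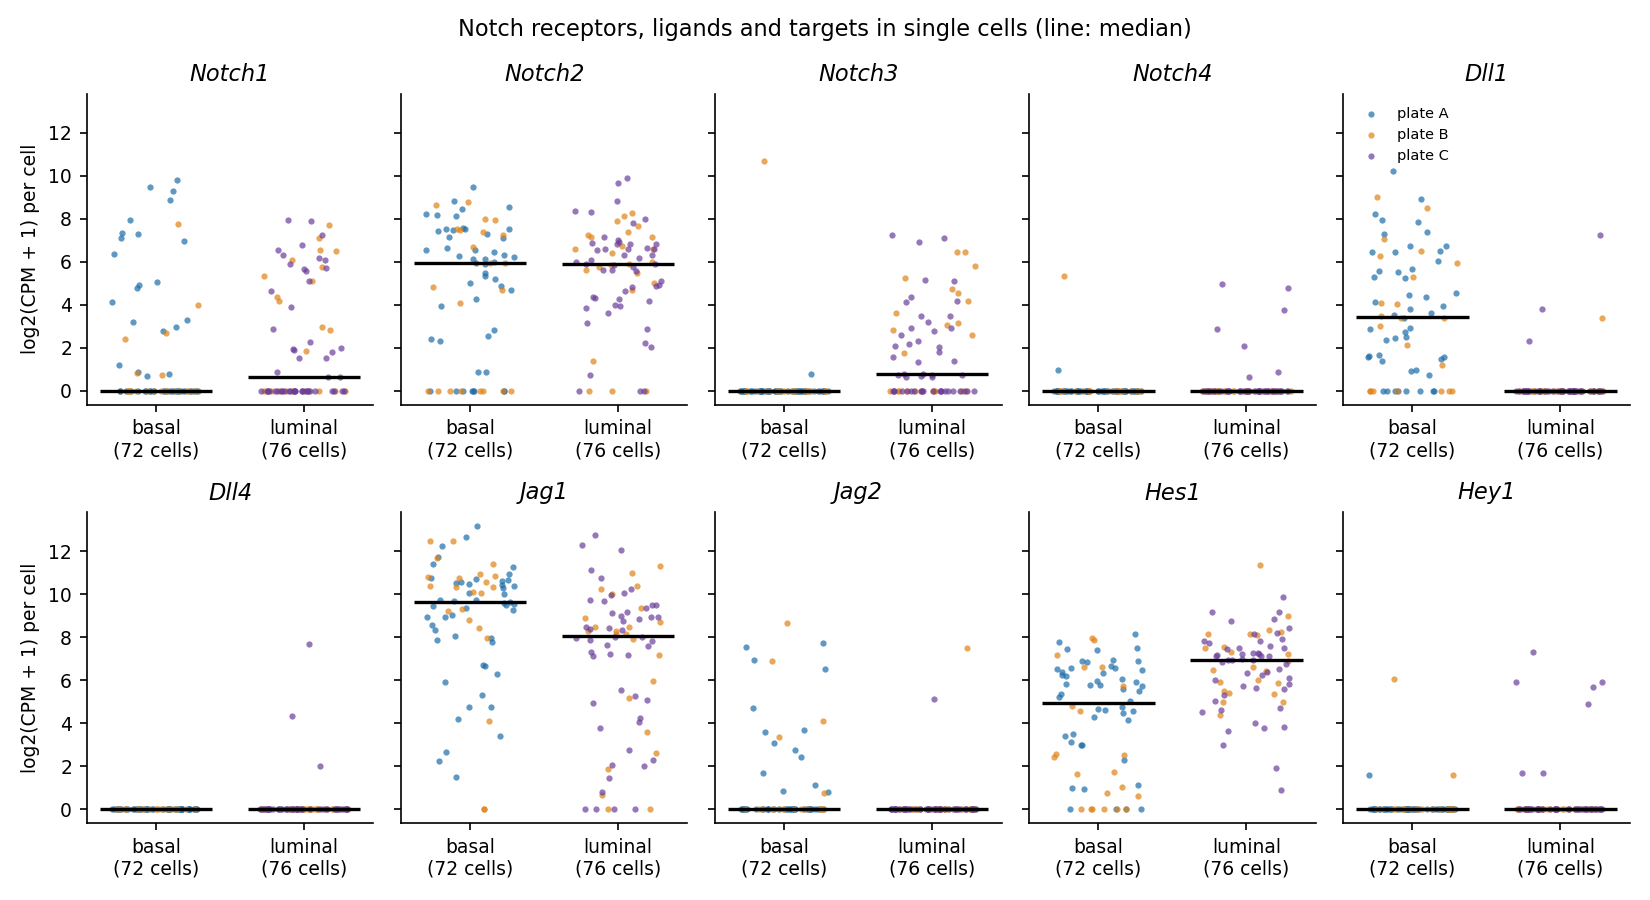
Level of each gene in each passing cell, as log2(CPM + 1) on the y axis, for 72 basal and 76 luminal cells; colours mark the PCR plate and the black line the median. Dll1 is spread through basal cells and near 0 in luminal cells, Hes1 has a read in all 76 luminal cells, and Notch3 in basal cells rests on 1 well at 1633 CPM.

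Among ligands, Jag1 stood far above the rest in each population, with 255 RPKM or 91.9% of the summed ligand RPKM in basal cells and 127 RPKM or 98.6% in luminal cells. The gene (Entrez 16449, chromosome 2, 137081451-137116520) encodes a Jagged ligand. It was 2.01-fold higher in basal cells, 1402 CPM (1394 to 1410) against 697 CPM (692 to 702), and the log2 ratio was -1.01 overall and -1.39 on plate B. Per cell, levels ran from 0 through a median of 806 to 9259 CPM (basal cell 48) in basal cells and from 0 through 269 to 6964 CPM (luminal cell 74) in luminal cells. The ranges overlapped, and 59 of 72 basal and 51 of 76 luminal cells exceeded 100 CPM. A read was present in 70 cells of each population, and at 50000 reads in 67 basal (93.1%, 84.5 to 97.7) and 62 luminal cells (81.6%, 71.0 to 89.5).

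Dll1 (Entrez 13388, chromosome 17, 15367354-15376932), a Delta-like ligand, showed the log2 ratio of largest size among the 10 genes. Its summed level was 61.6 CPM (59.9 to 63.3) in basal and 1.24 CPM (1.05 to 1.47) in luminal cells, 49.5-fold higher in basal cells (log2 ratio -4.80). The difference was present on plate B, with 59.9 against 0.0271 CPM and a log2 ratio of -5.89, and basal cells of plate A held 62.5 CPM. Basal cells ran from 0 through a median of 9.73 to 1197 CPM in basal cell 47. Of the 142 luminal reads, 121 were in luminal cell 27, a well with endothelial markers, and 16 in luminal cell 63, the well with 9 basal markers. A read was found in 57 of 72 basal and 4 of 76 luminal cells, and at 50000 reads in 32 basal (44.4%, 32.7 to 56.6) and 2 luminal cells (2.63%, 0.320 to 9.18). These intervals do not overlap. The exons of A930024N18Rik overlap Dll1 on the other strand, and without a known strand setting their reads cannot be told apart.

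Jag2 (Entrez 16450, chromosome 12, 112907803-112929812), the other Jagged ligand, was lower, at 4.55 RPKM in basal and 0.731 RPKM in luminal cells. It was 6.22-fold higher in basal cells, 18.4 CPM (17.5 to 19.4) against 2.96 CPM (2.66 to 3.30), and the log2 ratio was -2.29 overall and -1.66 on plate B. A few cells carried most of it. Basal cell 95, a well with endothelial markers, held 607 of the 1550 basal reads, and luminal cell 8 held 303 of the 338 luminal reads. On plate B, basal cell 95 held 607 of the 791 basal reads and luminal cell 8 all 303 luminal reads. Basal cells there held 6.94 CPM without basal cell 95, against 8.22 CPM in luminal cells, or 0 CPM without luminal cell 8. Over all plates without the wells with endothelial markers the log2 ratio was -1.78, and for plate B it was not computed. Reads were in 19 basal and 2 luminal cells, and at 50000 reads in 9 (12.5%, 5.88 to 22.4) and 1 (1.32%, 0.0333 to 7.11).

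Dll4 (Entrez 54485, chromosome 2, 119325784-119335666), the Delta-like ligand of sprouting vessels, had no read in any of the 72 basal cells, which allows a level of up to 0.0357 CPM. Luminal cells held 283 reads, 2.48 CPM (2.20 to 2.79), at least 69.6-fold higher against that limit of 3 counts over the population. All 283 were in 3 of the luminal wells with endothelial markers, 258 of them in luminal cell 71, 20 in luminal cell 55 and 5 in luminal cell 25.

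**Figure D3:**
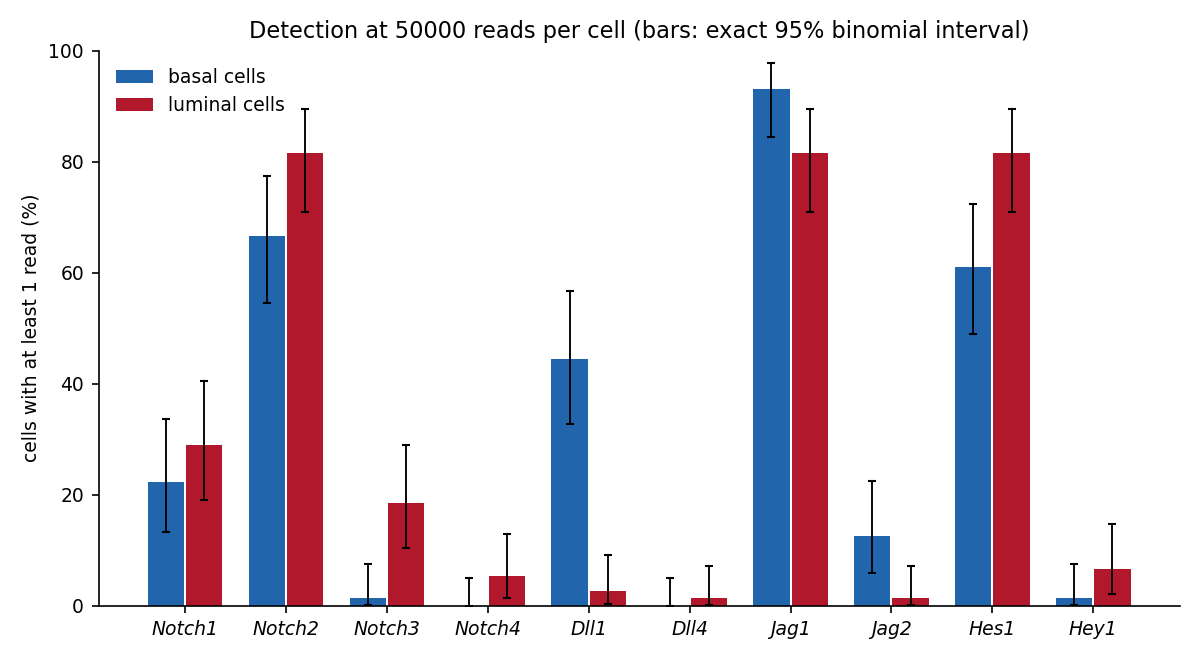
Share of cells with at least 1 read of each gene after every cell was reduced to 50000 reads, in percent, for 72 basal (blue) and 76 luminal cells (red); error bars are exact 95% binomial intervals and cover counting error only. Dll1 stands at 44.4% of basal and 2.63% of luminal cells and Notch3 at 1.39% and 18.4%.

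Of the targets, Hes1 (Entrez 15205, chromosome 16, 30065357-30067796), a basic helix-loop-helix repressor, was 3.01-fold higher in luminal cells. Its level was 53.8 CPM (52.2 to 55.4) in basal and 162 CPM (160 to 164) in luminal cells, or 37.1 and 112 RPKM. The log2 ratio was 1.57, and on plate B it was 1.93, with 40.0 against 156 CPM. Basal cells ran from 0 through a median of 29.2 to 282 CPM and luminal cells from 0.871 through 120 to 2613 CPM. The ranges overlapped, but the upper quartile of basal cells (88.8 CPM) lay below the luminal median. Every luminal cell had a read, as did 62 of 72 basal cells. At 50000 reads, 62 luminal (81.6%, 71.0 to 89.5) and 44 basal cells (61.1%, 48.9 to 72.4) had one, and on plate B 22 of 24 luminal (91.7%) and 9 of 22 basal cells (40.9%). Over 10 random draws of the reads the count was 62 to 72 luminal and 41 to 47 basal cells.

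Hey1 (Entrez 15213, chromosome 3, 8663359-8667038), a related repressor, was scarce, with 0.903 CPM (0.712 to 1.13) in basal and 3.42 CPM (3.09 to 3.78) in luminal cells. The log2 ratio was 1.22 overall and -1.86 on plate B, where luminal cells had 0 reads and basal cells 74, of which 71 were in basal cell 80. Reads were found in 3 basal and 7 luminal cells. Of the 466 reads, 357 (76.6%) lay in the 10 wells with endothelial markers, at 32.2 CPM against 0.583 CPM elsewhere. Without those wells the log2 ratio was 0.95.

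**Figure D4:**
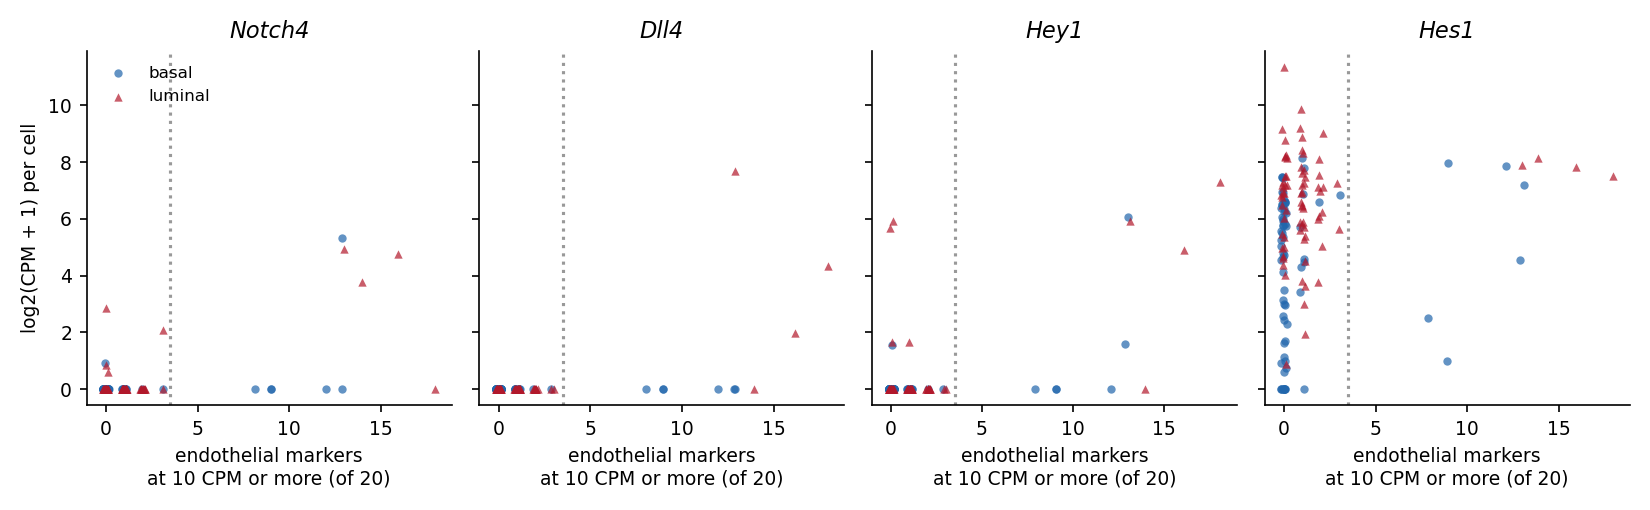
Level of Notch4, Dll4, Hey1 and Hes1 in each passing cell, as log2(CPM + 1), against the number of 20 endothelial markers at 10 CPM or more in that cell; blue circles are basal and red triangles luminal cells, and points right of the dotted line are the 10 wells with at least 4 markers. All 283 Dll4 reads and 133 of 143 Notch4 reads lie to the right, while Hes1 is present on each side.

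The wells with endothelial markers took 5.60% of all reads of the 148 cells, and the genes fell into separate sets by their share of reads there. Dll4 (100%), Notch4 (93.0%) and Hey1 (76.6%) were mostly in them, Jag2 to 34.6% and Jag1 to 12.7%. Hes1 (7.83%), Notch1 (7.10%), Notch2 (4.60%), Dll1 (4.54%) and Notch3 (1.39%) were not. Among the other Hes and Hey targets, Heyl had 217 of 325 reads in those wells and Hey2 203 of 207. Hes1 was at 162 CPM in those wells and 113 CPM in the other 138 cells, and Jag1 at 2261 and 921 CPM. Split by population in the same order, Hes1 was at 112.6 and 49.0 CPM in basal and at 229 and 159 CPM in luminal cells. Jag1 was at 2379 and 1323 CPM in basal and at 2104 and 636 CPM in luminal cells. How far endothelial RNA enters the remaining values was not tested.

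In most cells a receptor and a ligand were detected together. At 50000 reads, a receptor was found in 53 basal (73.6%, 61.9 to 83.3) and 67 luminal cells (88.2%, 78.7 to 94.4), and at least 2 receptors in 12 basal (16.7%, 8.92 to 27.3) and 28 luminal cells (36.8%, 26.1 to 48.7). A ligand was found in 69 basal (95.8%) and 63 luminal cells (82.9%). A ligand other than Jag1 was found in 36 basal (50.0%, 38.0 to 62.0) and 4 luminal cells (5.26%, 1.45 to 12.9). Receptor and ligand together were in 52 basal and 58 luminal cells, a receptor alone in 1 basal and 9 luminal cells, and a ligand alone in 17 basal and 5 luminal cells. Of the 32 basal cells with a Dll1 read, 30 also had Jag1 and 21 a receptor. Of the 14 luminal cells with Notch3, 11 also had Jag1. Hes1 was read in 35 of 53 basal cells with a receptor (66.0%) and 9 of 19 without (47.4%), and in 54 of 67 luminal cells with a receptor (80.6%) and 8 of 9 without (88.9%). The basal plates differed in this. On plate A it was 27 of 39 basal cells with a receptor (69.2%) and 8 of 11 without (72.7%). On plate B, where fewer genes were detected per basal cell, it was 8 of 14 (57.1%) and 1 of 8 (12.5%). Counted as shares alone, 7 of the 10 genes were read in a larger share of luminal cells and 3 (Dll1, Jag1 and Jag2) in a larger share of basal cells, where the larger share was luminal for 65.7% and basal for 31.9% of all genes.

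Luminal cells are divided into progenitors and mature cells by their markers. Over the 76 luminal cells at 50000 reads, the Spearman rho with the mean level of 8 luminal progenitor markers was -0.27 for Jag1, 0.17 for Notch1 and Notch2, 0.02 for Notch3 and 0.04 for Hes1. With 8 mature luminal markers it was 0.19 for Jag1 and Notch3, 0.03 for Notch1, -0.03 for Notch2 and -0.08 for Hes1. For Jag1 and the progenitor markers, rho was -0.08 within plate B and -0.36 within plate C, and for Notch2 it was 0.57 within plate B (24 cells) and 0.00 within plate C (52 cells). These values describe cells that share their source and differ in depth.

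The genes most like each of the 6 members with a read in at least 20% of cells were taken by Spearman rho over the 148 cells, among 8570 genes. Dll1 was most like Nrg1 (0.74), a growth factor of the EGF family, Mylk (0.72), a contractile kinase among the basal markers, and Tpm2 (0.71), a tropomyosin. Within basal cells alone these values were 0.29, 0.22 and 0.13, so most of the likeness came from the difference between populations. Notch3 was most like Abhd17c (0.65), Bcl2l14 (0.64) and Foxa1 (0.62), a transcription factor among the mature luminal markers, with 0.48, 0.53 and 0.36 within luminal cells. Hes1 was most like Piezo2 (0.47), a mechanically gated channel, Trps1 (0.47) and Enpp4 (0.46). These were 0.09, 0.33 and 0.33 within basal cells and 0.27, 0.19 and 0.35 within luminal cells. For Jag1 the nearest were Lifr (0.46), a cytokine receptor, Sema6d (0.43) and Tril (0.42), with 0.40, 0.38 and 0.35 within basal cells. Within luminal cells they were 0.40, 0.08 and 0.24. The nearest to Notch1 was Ube3c (0.44, with 0.32 within basal and 0.53 within luminal cells). The nearest to Notch2 was Wtap (0.35, with 0.38 and 0.30), a part of the RNA methylation machinery. Dll1 and Notch3 were opposed over all cells (-0.46), with -0.16 within basal and -0.06 within luminal cells. Dll1 and Jag1 went together (0.41, with 0.29 and 0.20). Notch3 had a read in only 2 of 72 basal cells and Dll1 in only 4 of 76 luminal cells. With almost all values tied at 0, rho of these genes within those populations could hardly be large, and it cannot show whether they are opposed or go together there.

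Of 56 other genes of the pathway, 46 passed the low-count filter. At least 2-fold higher in luminal cells were 14 (30.4%) and in basal cells 9 (19.6%), close to the 28.4% and 18.3% of all genes, and 23 lay between. On plate B they were 17 (37.0%) and 14 (30.4%), beside 41.4% and 17.2% of all genes. In both comparisons 11 and 7 kept their direction. Of the latter 18, 16 also reached 10 CPM in the higher population. All but 1 of the 16 are named below, with a few others.

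Of 4 measured genes of ligand endocytosis, 3 were at least 2-fold higher in basal cells and 0 were lower there by as much, where 18.3% and 28.4% of all genes were. Of the 3 only Neurl3 kept this on plate B, where 17.2% of all genes were at least 2-fold higher in basal cells. The ubiquitin ligase Mib1 had a log2 ratio of -1.49, and -1.14 without the cell with most reads in each population (the top cells). On plate B its ratio was -0.84, and 2.01 without the top cells there. Neurl1b had -1.48, and 0.06 without the top cells. Neurl3, a ubiquitin ligase, had a log2 ratio of -5.13, but 2887 of its 2889 basal reads were in basal cell 82, a well with endothelial markers, and without the top cells the ratio was -0.03. In the group that adds sugars to receptors, Poglut1, an O-glucosyltransferase, stood at 244 CPM in basal cells and 21.5 CPM in luminal cells (log2 ratio -3.45, and -3.15 on plate B). Rfng, a Fringe enzyme that changes which ligands a receptor prefers, went the other way, with 7.30 and 25.6 CPM and a log2 ratio of 1.68.

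Of 10 genes of receptor cleavage, 4 were at least 2-fold higher on the luminal side and 0 on the basal side, where 28.4% and 18.3% of all genes were. On plate B, 3 of the 10 were at least 2-fold higher in basal cells and 5 on the luminal side, beside 17.2% and 41.4% of all genes. The 3 were Adam17 (log2 ratio -1.74), Aph1b (-1.87) and Aph1c (-3.54). Without the top cells of plate B these ratios were -0.57, -0.21 and -0.38, so none of the 3 stayed 2-fold higher in basal cells. Adam10, the protease of the first ligand-induced cut, stood at 36.2 CPM in basal cells and 155 CPM in luminal cells (log2 ratio 2.07, and 3.13 on plate B), with a read in 21 of 72 and 70 of 76 cells. Psen2, a catalytic subunit of gamma-secretase, stood at 6.95 and 21.8 CPM, with a log2 ratio of 1.52 overall and 2.83 on plate B. Furin, which cuts the receptor during its maturation, had 1.26 overall and 0.03 on plate B.

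Among genes of receptor turnover, 2 of 9 were at least 2-fold higher in luminal cells, where 28.4% of all genes were. These were the Deltex ubiquitin ligases Dtx4 and Dtx3. Dtx4 had 3 reads in basal cells and 5732 in 38 luminal cells, or 0.0357 against 50.2 CPM, with a log2 ratio of 5.63 and 6.61 on plate B. Dtx3 had log2 ratios of 1.42 and 1.59, the latter -0.10 without the top cells. Numb, an adaptor that restrains Notch, lay at 15.3 and 20.2 CPM with a log2 ratio of 0.38.

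In the nuclear complex, Rbpj itself differed by 0.60, with 28.7 CPM in basal cells and 44.1 CPM in luminal cells. Of the Mastermind coactivators, Maml1 (log2 ratio -2.49) and Maml2 (-1.65) were higher in basal cells. On plate B, Maml1 had -2.61, and 0.76 without the top cells there. The Maml2 difference was -5.51 on plate B and -0.19 between basal plate A and luminal plate C. Maml3 (2.26) was higher in luminal cells, where luminal cell 54 held 3296 of its 5019 luminal reads. That well held 10 of 10 fibroblast markers and only 2 of 10 luminal markers. Without the top cells Maml3 stood at 1.06. Snw1, an Rbpj cofactor and splicing factor, had 1.19 overall and 0.77 without the top cells. On plate B its ratio was 6.85, with 0.179 CPM in basal cells, against 130 CPM in basal cells of plate A. The Groucho corepressors Tle1 (-2.89) and Tle4 (-3.11) were higher in basal cells and the deacetylase Hdac1 (1.01) in luminal cells. For Tle4, basal cell 19 held 6013 of the 10519 basal reads, and without the top cells the ratio was -2.31 (-0.55 on plate B). Of 8 other targets 3 passed the filter. Hes6, a relative of Hes1 that can oppose it, had 1 read in basal cells and 1190 in 20 luminal cells (log2 ratio 3.50).

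**Figure D5:**
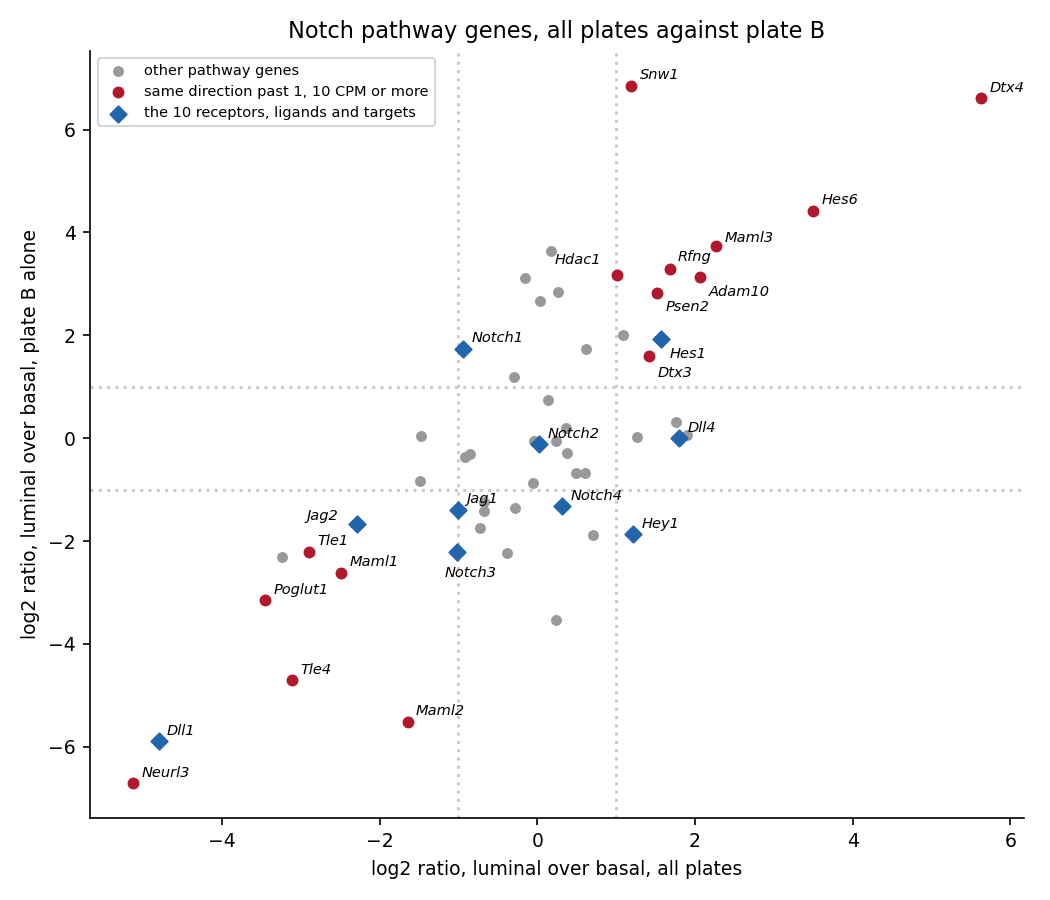
Log2 ratio of summed CPM, luminal over basal with 1 CPM added, over all plates (x axis) and on plate B alone (y axis), for 45 of the 46 other pathway genes (circles, red where they reached 10 CPM and kept their direction past 2-fold) and the 10 receptors, ligands and targets (blue diamonds); dotted lines mark 2-fold. Dll1 at -4.80 and -5.89 and Dtx4 at 5.63 and 6.61 keep their direction, while Notch1 and Hey1 lie in opposite directions on the 2 axes.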

How the data were processed

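The labels and the study's methods describe freshly sorted cells captured on a Fluidigm C1 chip, which makes full-length cDNA from polyadenylated RNA, Nextera XT libraries and Illumina sequencing. The authors aligned read pairs to mm10 with Subread and deposited raw counts per gene from featureCounts with its built-in RefSeq annotation. A strand setting is not given in the sources used here. The deposited gene length served for RPKM. The table that joins all cells was left aside.

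Of 27179 Entrez identifiers, 25275 matched a symbol in RefSeq (GRCm38.p6), and the other 1904 held 1.94% of counts and were left out. After removal of 15 mitochondrial and 124 ribosomal protein genes, the study's thresholds were applied (50000 reads and 1000 genes for basal, 100000 reads and 1500 genes for luminal cells), then a gene minimum of 1 CPM in 3 cells. No pair of files was identical. Doublets were not called, since the study inspected capture sites by microscope. Depth after removal was a median of 1189250 reads in basal and 1459610 in luminal cells.

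Counts were summed per population (84122604 and 114077474 reads). The log2 ratio was taken on CPM with 1 CPM added, which understates changes of low genes, and a size of 1 was the threshold. Sums have exact Poisson and shares exact Clopper-Pearson intervals. The libraries carry no molecular identifiers, so reads are not independent molecules. For shares, cells were thinned to 50000 reads. The ratio step was tested on simulated data.

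The members and lists were chosen with earlier results of these data known. Named were the 10 members, pathway genes with at least 10 CPM in the higher population and a ratio past the threshold in the same direction with and without the restriction to plate B, and the 3 genes most like each member by Spearman correlation. Other genes with values (Mib1, Neurl1b, Furin, Adam17, Aph1b, Aph1c, Numb, Rbpj, Heyl, Hey2) were added after their values were seen. Scaling factors came from edgeR 4.0.16 (R 4.3.3), and the rest from Python 3.11.15 with pandas 2.3.3, numpy 2.4.6 and scipy 1.17.1. Alternatives covered cell and gene filters, plates, scaling, the CPM added, the threshold, depth and single wells. The result for 1 pathway gene is not reported here.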

Additional observations from a re-analysis of the deposited data

Results flagged for a closer look

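The 38 wells below the thresholds entered no comparison, and 3 of the 10 genes were above the limit of 3 counts in them (11.3 CPM over 24 basal wells with 265874 reads, 7.27 CPM over 14 luminal wells with 412543 reads). Jag1 was at 312 CPM in the basal and 187 CPM in the luminal wells. Hes1 was at 181 CPM in the basal and 126 CPM in the luminal wells. Notch2 was at 4200 CPM in the basal wells, where 1108 of its 1117 reads were in 1 well, and at 17 CPM in the luminal wells, from 7 reads. The other 7 genes had at most 2 reads in either set of wells.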

How the results depend on the processing

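Replicates and a cell's mouse are not named, so depth and plate set the limits: plate and population cannot be told apart outside plate B, and Notch4, Dll4, Jag2 and Hey1 rest on few reads or few wells. No paired analysis was possible because the shared cell numbers only name cells and no test was run. Dll1, Jag1, Jag2 and Hes1 kept their direction under every alternative tried. Plate B without the wells with endothelial markers was not among these alternatives. Notch3 turned to 3.82 without basal cell 90, 3.83 without the wells in which markers of the other population outnumber its own (both chosen after seeing the data), 3.63 without the cell with most reads in each population and 3.61 for basal plate A against luminal plate C, and Hey1 turned to -1.86 on plate B. For members, the luminal count of 3 became 5 for plate A against plate C, 1 with 10 CPM added, 1 without wells with endothelial markers and 0 at a log2 threshold of 2, and the basal count of 4 became 2 with 10 CPM added and 2 at that threshold. For the other pathway genes, the luminal count of 14 became 8 with 10 CPM added and 4 at a threshold of 2, and the basal count of 9 became 14 on plate B and 14 at a threshold of 0.58. A higher threshold and a larger added CPM shrink counts by construction, and for the rest the cause was not tested. Scaling by TMM or median-of-ratios factors moved the median over all genes from 0.18 to 0.03 and 0.01 and lowered the ratio of each of the 10 genes, so that Notch1 reached -1.16 and -1.19 and Notch2 -0.20 and -0.23. Of 140 shares under alternatives, 36 moved out of their interval.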
